A study of Arabidopsis thaliana with 18 samples.

Results

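LTP1 (AT2G38540), LTP2 (AT2G38530), LTP3 (AT5G59320) and LTP4 (AT5G59310) encode nonspecific lipid transfer proteins of Arabidopsis thaliana. They were taken by locus from a table of gene counts, so they were 4 of 32832 genes. The genes were chosen because the mock libraries of atm1-1 had been seen to hold less LTP3 than those of Col-0. The values of that contrast are therefore given below as a description, without a test, and so are the values of LTP3 in every comparison that uses the mock libraries. A filter on low counts kept 3 of the 4 genes among the 19679 genes tested, and LTP4 was left out by it.

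The libraries came from whole seedlings at 5 days of age. atm1-1 seedlings, which carry the T-DNA insertion SAIL_405_B08 in the class VIII myosin gene ATM1 (AT3G19960), were set against the wild type Col-0, the accession in which the insertion was made. Seedlings of each genotype grew on MS medium with 15 mM glucose, with 15 mM sucrose or with neither sugar (mock), which gave 6 groups of 3 biological replicates and 18 libraries in all. atm1-1 is a single insertion line, so an effect of the insertion and any other difference of that line from Col-0 cannot be told apart here.

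Nonspecific lipid transfer proteins are small secreted proteins that hold a lipid in a hydrophobic cavity. In Arabidopsis they are known mainly from the epidermis and its cuticle, where they have been linked to the movement of wax and cutin monomers and to the barrier against water loss. LTP1 is a major epidermal family member, LTP2 has been tied to cuticle integrity in seedlings, and LTP3 is known as a gene induced by abscisic acid and drought through the transcription factor MYB96. LTP4 is the neighbour and closest relative of LTP3.

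The libraries were QuantSeq 3′ libraries of 50-base reads, in which a transcript is counted from reads near its 3′ end. Each library held 9450790 to 20256309 counts on genes. Levels are given as CPM (counts scaled to library size) after TMM normalization, a scaling for library composition. ATM1 itself had 311 to 623 counts in every library, and its log2 fold change in atm1-1 against Col-0 was -0.27 in mock, 0.19 with glucose and -0.17 with sucrose, with adjusted p of 1.00, 0.870 and 0.999 by edgeR's quasi-likelihood test. The genotype labels thus could not be checked from it. All 6 leaf markers, 7 root markers and 4 shoot epidermis markers on the lists used here passed the filter on low counts, so transcripts of shoot and root were both present.

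The genes lie in neighbouring pairs, and within a pair the reads of one gene could in principle be counted on the other. In the RefSeq annotation of the TAIR10.1 assembly, LTP1 and LTP2 follow each other on the forward strand of chromosome 2, 890 bases apart. LTP3 on the forward strand and LTP4 on the reverse strand of chromosome 5 are transcribed away from each other, with 2996 bases between them. Each gene model has 2 exons, and the coding sequence has 357 bases in LTP1 and LTP2, 348 bases in LTP3 and 339 bases in LTP4. The coding sequences of LTP1 and LTP2 were identical at 82.4% of aligned positions and those of LTP3 and LTP4 at 84.5%, whereas between the pairs identity was 54.7% to 60.4%. The last 90 coding bases of each gene are shown, up to and including the stop codon. They show how much a pair shares at the end of its coding part. They are written 5′ to 3′ on the coding strand, and capitals mark the bases that differ from the neighbour in the pair.
LTP1: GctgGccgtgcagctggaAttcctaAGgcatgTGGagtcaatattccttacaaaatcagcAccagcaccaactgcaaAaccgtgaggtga
LTP2: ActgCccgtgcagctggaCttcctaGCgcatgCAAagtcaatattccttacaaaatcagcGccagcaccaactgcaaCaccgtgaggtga
LTP3: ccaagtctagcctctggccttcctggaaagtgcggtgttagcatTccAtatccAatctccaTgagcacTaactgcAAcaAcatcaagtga
LTP4: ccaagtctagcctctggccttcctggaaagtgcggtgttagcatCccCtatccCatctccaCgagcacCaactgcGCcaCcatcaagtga

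In these 90 bases LTP1 and LTP2 differed at 10 positions and LTP3 and LTP4 at 8 positions. Downstream of the stop codon the pairs were less alike. Of the last 300 windows of 50 bases in each transcript, which is the stretch that 3′ libraries mostly read, none came within 2 mismatches of the neighbour. The closest approach was 10 mismatches for LTP1, 11 for LTP2, 15 for LTP3 and 10 for LTP4. No window lying wholly within the printed 90 bases was among those 300. No 50-base window of the 4 transcripts occurred a further time in the genome, apart from the 49 windows per gene that cross the exon junction and occur nowhere as genomic sequence. Upstream, in the coding part, the closest window differed by 1 base between LTP1 and LTP2 and by 2 bases between LTP3 and LTP4.

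**Figure D1:**
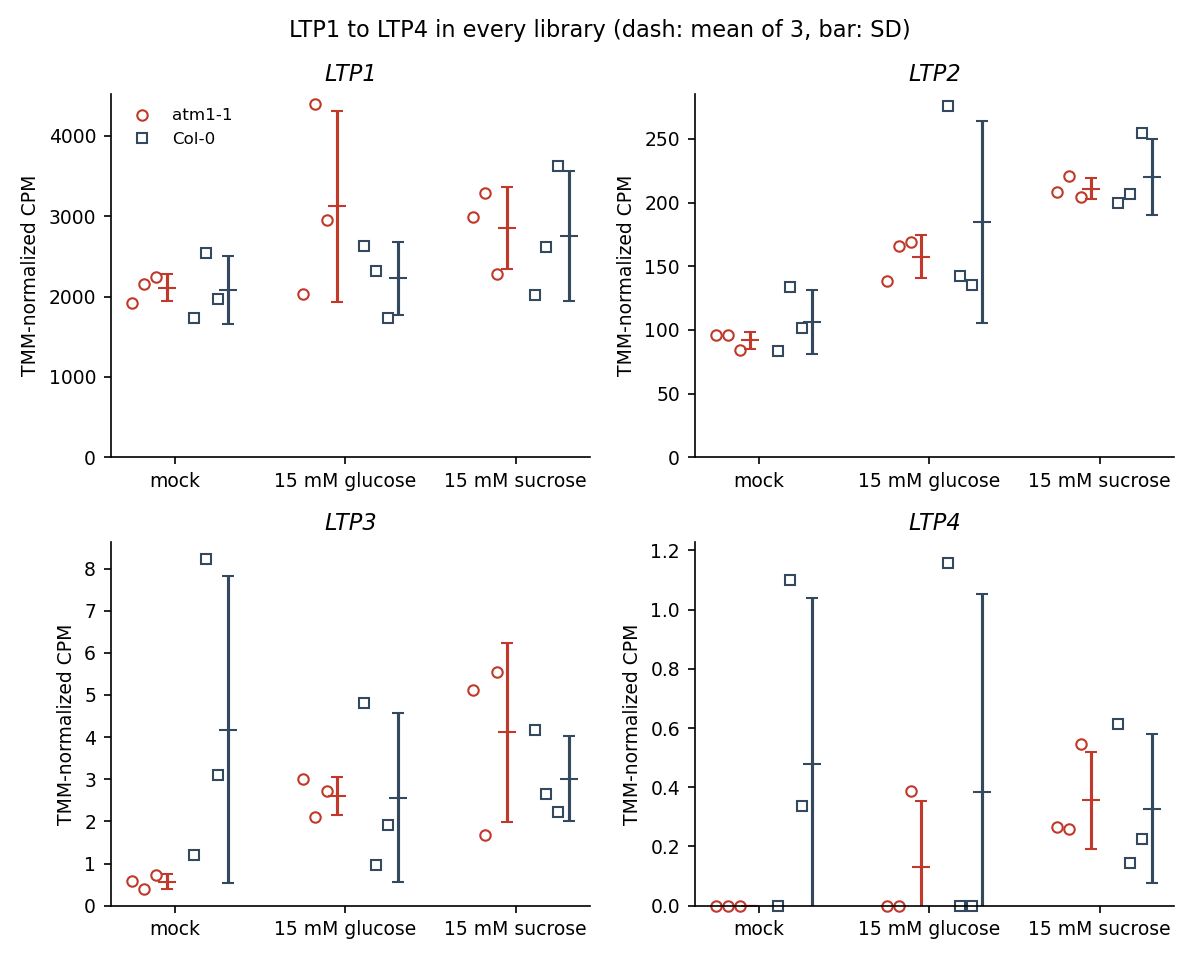
TMM-normalized CPM (vertical axes, linear) of LTP1, LTP2, LTP3 and LTP4 in each of the 18 libraries, by treatment, with atm1-1 as red circles and Col-0 as dark squares in replicate order; dashes are means of 3 libraries and bars are 1 SD. LTP2 libraries with either sugar sit above all mock libraries of the same genotype, while the 3 atm1-1 mock libraries of LTP3 lie between 0.394 and 0.736 CPM and those of LTP4 at 0.

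LTP3 was the gene by whose values the family was selected. Its atm1-1 mock libraries had 0.576, 0.394 and 0.736 CPM (10, 5 and 9 counts), against 1.19, 8.24 and 3.11 CPM (16, 105 and 37 counts) in Col-0 mock libraries. The atm1-1 libraries were all below the Col-0 libraries, but the Col-0 libraries themselves spanned a 6.92-fold range. The means were 0.569 ± 0.171 CPM in atm1-1 and 4.18 ± 3.64 CPM in Col-0 (SD, n = 3 each), and the fitted log2 fold change was -2.86 (SE 0.64). Col-0 mock replicate 2 alone carried much of this. Without it the other Col-0 libraries averaged 2.15 CPM and the log2 fold change was -1.90. Over all genes tested, 31 passed an adjusted p of 0.1 in this contrast, 7 of them higher and 24 lower in atm1-1, which is 0.158% of the genes. In bulk RNA, fewer cells that express a gene and less RNA per cell cannot be told apart.

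LTP4, next to LTP3, was close to the limit of detection throughout. It had 67 counts over the 18 libraries together and 0 counts in 8 of them. In mock, atm1-1 libraries had 0, 0 and 0 counts, against 0, 14 and 4 counts in Col-0 libraries. A count of 0 over the 3 atm1-1 libraries allows up to 3 counts, and with the 18 Col-0 counts taken as they stand LTP4 was at least 6.66-fold lower in atm1-1 than in Col-0. The bound covers counting error in atm1-1 only, not the spread between libraries. It is a description, since this contrast chose the family. Of the 18 Col-0 counts 14 came from replicate 2, the same library in which LTP3 was highest. Without that library the bound was 2.22-fold.

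The other pair did not share this difference in size. LTP1 had 1921, 2158 and 2248 CPM in atm1-1 mock libraries, against 1728, 2545 and 1963 CPM in Col-0 mock libraries, and the ranges overlapped. Its log2 fold change was 0.02 (SE 0.23). LTP2 had 95.8, 95.6 and 84.2 CPM in atm1-1 mock libraries, against 83.5, 134 and 101 CPM in Col-0 mock libraries, again with overlap, and its log2 fold change was -0.21 (SE 0.21). For both genes Col-0 mock replicate 2 was the highest of the 6 mock libraries.

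With either sugar in the medium, the 2 genotypes could be compared in libraries that played no part in the choice of the genes. With glucose, LTP3 had 3.00, 2.11 and 2.71 CPM in atm1-1, against 4.80, 0.963 and 1.91 CPM in Col-0. The atm1-1 libraries lay inside the range of the Col-0 libraries. The log2 fold change was 0.02 (SE 0.57; adjusted p = 0.996, edgeR quasi-likelihood test with Benjamini-Hochberg adjustment over 19679 genes), with a 95% interval of -1.09 to 1.13.

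With sucrose, LTP3 had 5.13, 1.67 and 5.55 CPM in atm1-1, against 4.16, 2.66 and 2.22 CPM in Col-0. The ranges overlapped, with atm1-1 holding both the lowest and the highest values. The log2 fold change was 0.45 (SE 0.54; edgeR adjusted p = 0.999), with a 95% interval of -0.60 to 1.5. Averaged over both sugars, the log2 fold change of LTP3 was 0.24 (SE 0.39; edgeR adjusted p = 0.913), with a 95% interval of -0.53 to 1.00.

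LTP1 in glucose libraries stood at 2032, 4391 and 2954 CPM in atm1-1, against 2623, 2313 and 1737 CPM in Col-0. The highest atm1-1 library was 2.16-fold above the lowest, and the genotypes overlapped. The log2 fold change was 0.49 (SE 0.23; edgeR adjusted p = 0.760). With sucrose the values were 2986, 3290 and 2286 CPM in atm1-1, against 2022, 2614 and 3627 CPM in Col-0, and the log2 fold change was 0.05 (SE 0.23; edgeR adjusted p = 0.999).

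LTP2 differed little between genotypes with sugar. In glucose libraries it had 138, 166 and 169 CPM in atm1-1, against 276, 143 and 135 CPM in Col-0, where replicate 1 was the highest by a wide margin. Its log2 fold change was -0.23 (SE 0.21; edgeR adjusted p = 0.855), and 0.18 without Col-0 glucose replicate 1. In sucrose libraries it had 208, 221 and 204 CPM in atm1-1, against 200, 207 and 254 CPM in Col-0, and the log2 fold change was -0.06 (SE 0.20; edgeR adjusted p = 0.999). None of the 3 genes tested passed in either sugar, beside 0.0508% of all genes with glucose (10 genes), 0.0457% with sucrose (9 genes) and 0.285% averaged over both sugars (56 genes). Without atm1-1 glucose replicate 1 edgeR called 207 genes with glucose and 359 averaged over both sugars, and still none of the 3.

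LTP4 had 0, 0 and 5 counts in atm1-1 glucose libraries, against 13, 0 and 0 counts in Col-0 glucose libraries. Its summed level in atm1-1 was 0.373 of that in Col-0, with a 95% interval from counting error of 0.104 to 1.12. With sucrose it was detected in every library, with 5, 4 and 6 counts in atm1-1, against 9, 2 and 5 counts in Col-0, a ratio of 1.05 (0.483 to 2.27). Neither ratio was distinguishable from equal levels at this depth.

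**Figure D2:**
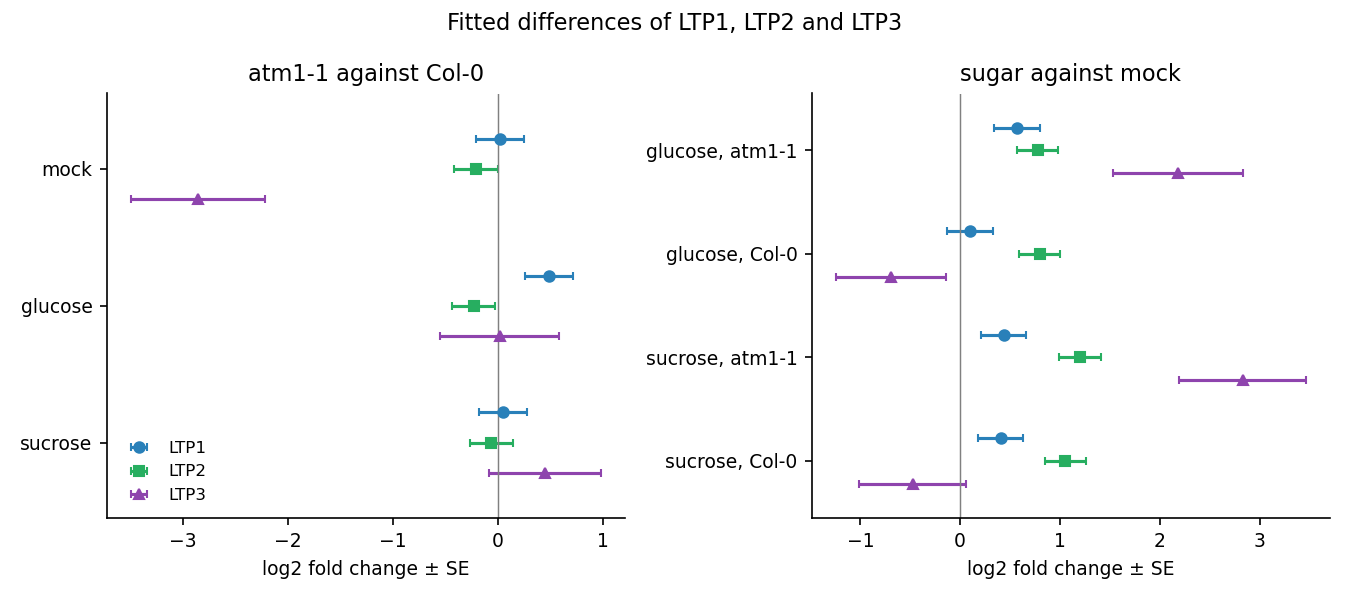
Fitted log2 fold changes (horizontal axes) of LTP1, LTP2 and LTP3 with bars of 1 SE, for atm1-1 against Col-0 in each treatment (left) and for each sugar against mock in each genotype (right). LTP3 stands at -2.86 in mock and near 0 with glucose, while LTP2 lies between 0.78 and 1.20 in all 4 comparisons of sugar with mock.

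Of LTP1 and LTP2, the members with a test against mock, only LTP2 was called. The mock libraries here are those from which the family was chosen, through LTP3, so the tests of LTP1 and LTP2 against mock share libraries with that choice. In atm1-1, LTP2 averaged 158 ± 16.8 CPM with glucose and 211 ± 8.46 CPM with sucrose, against 91.9 ± 6.64 CPM in mock (SD, n = 3 each). In Col-0 it averaged 185 ± 79.3 CPM with glucose and 220 ± 29.7 CPM with sucrose, against 106 ± 25.4 CPM in mock (SD, n = 3 each). In both genotypes all libraries with a sugar were above all mock libraries. The share of all genes whose libraries separated in this way was not counted. Separation of libraries is therefore given as a description, here and elsewhere.

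The rise of LTP2 with sucrose was 1.20 on the log2 scale in atm1-1 (SE 0.21; edgeR adjusted p = 0.00105) and 1.05 in Col-0 (SE 0.21; edgeR adjusted p = 0.00799). In Col-0 the adjusted p became 0.109 without mock replicate 1. With glucose LTP2 rose by 0.78 in atm1-1 (SE 0.21; edgeR adjusted p = 0.0517). That call was lost when any 1 of the 3 mock libraries of atm1-1 was left out, with adjusted p of 0.122 for replicate 1, 0.136 for replicate 2 and 0.205 for replicate 3, and also when glucose replicate 3 was left out (0.141). In Col-0 the glucose value was 0.80 (SE 0.21; edgeR adjusted p = 0.118) and did not pass the threshold. It passed without Col-0 mock replicate 2 (0.0672), glucose replicate 2 (0.0637) or glucose replicate 3 (0.0417), and DESeq2 gave an adjusted p of 0.0389. Among all genes, 2.92% passed with glucose and 5.23% with sucrose in atm1-1, and 0.554% with glucose and 2.14% with sucrose in Col-0. These counts moved by over 1.5 times when single libraries were left out. Whether the rise differed between the genotypes was not tested, because that difference contains the mock contrast.

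LTP1 was not called against mock in any of the 4 comparisons. In atm1-1 its log2 fold change was 0.57 with glucose (SE 0.23; edgeR adjusted p = 0.250) and 0.44 with sucrose (SE 0.23; edgeR adjusted p = 0.389). All 3 atm1-1 sucrose libraries were above all 3 atm1-1 mock libraries, whereas the glucose libraries overlapped mock. Here too the share of all genes so separated was not counted. The glucose value passed without atm1-1 glucose replicate 1, at 0.81 with an adjusted p of 0.0268. In Col-0 the values were 0.10 with glucose (SE 0.23; edgeR adjusted p = 0.995) and 0.41 with sucrose (SE 0.23; edgeR adjusted p = 0.459), with overlapping libraries in both.

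For LTP3 the comparisons with mock are a description, since the low atm1-1 mock values chose the gene. In atm1-1 all 6 libraries with a sugar lay above the 3 mock libraries, and the log2 fold change was 2.18 with glucose (SE 0.65) and 2.83 with sucrose (SE 0.64). In Col-0 the libraries overlapped, and the values were -0.70 with glucose (SE 0.55) and -0.48 with sucrose (SE 0.54). Without Col-0 mock replicate 2 both Col-0 values turned to the other sign, at 0.27 and 0.49. LTP4 had 5 counts with glucose and 15 counts with sucrose in atm1-1, against 0 counts in atm1-1 mock. Against a floor of 3 counts, and with the sugar counts taken as they stand, it was at least 1.94-fold higher with glucose and at least 4.67-fold higher with sucrose. Both bounds cover counting error in mock only, not the spread between libraries, and rest on the mock libraries that chose the family. All 5 glucose counts came from replicate 3. The glucose libraries overlapped mock, whereas the sucrose libraries were all above mock. In Col-0 LTP4 had 13 counts with glucose and 16 counts with sucrose, against 18 counts in mock. The ratios were 0.781 (95% counting interval 0.352 to 1.69) and 0.669 (0.319 to 1.39).

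The 2 sugars could also be set against each other without mock. In atm1-1 the 3 sucrose libraries of LTP2 (204 to 221 CPM) were all above the 3 glucose libraries (138 to 169 CPM). How many of all genes separated in this way was not counted. The log2 fold change of LTP2 was 0.42 (SE 0.21; edgeR adjusted p = 0.981). In Col-0 the value was 0.26 (SE 0.20; edgeR adjusted p = 0.870) and the libraries overlapped. LTP1 had -0.13 in atm1-1 and 0.31 in Col-0, and LTP3 had 0.65 in atm1-1 and 0.22 in Col-0, each less than 2 SE from 0. The difference between the genotypes in this step was -0.44 (SE 0.32) for LTP1, 0.17 (SE 0.29) for LTP2 and 0.43 (SE 0.78) for LTP3, all at an adjusted p of 1.00 by edgeR. edgeR called 0 of the members and 0% of all genes in the 3 comparisons between sugars. At an unadjusted p under 0.05 edgeR had 936 genes in atm1-1, 1282 in Col-0 and 527 for the difference, and DESeq2 called 4, 13 and 0 genes.

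In order of the group means, the 6 groups of LTP2 ran with atm1-1 mock and Col-0 mock at the bottom, the glucose groups next and the sucrose groups on top, and the only neighbours in that order whose libraries did not overlap were Col-0 mock and atm1-1 glucose. For LTP3 the single gap was between atm1-1 mock and Col-0 glucose, and the remaining 5 groups, from 2.56 to 4.18 CPM, overlapped each other along the order. The group means of LTP1 spanned 2078 to 3126 CPM, with Col-0 mock lowest and atm1-1 glucose highest, and every neighbouring pair of groups overlapped. The groups of LTP4 overlapped along their order in the same way.

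Libraries that were high in one gene were often high in its relatives. Over the 18 libraries the Pearson r of log2 CPM was 0.80 between LTP3 and LTP4, 0.61 between LTP1 and LTP2 and 0.61 between LTP2 and LTP3, but 0.23 between LTP1 and LTP3. After the group means were taken out, LTP3 and LTP4 still had r = 0.79 and LTP2 and LTP4 had 0.80, whereas LTP1 and LTP3 had 0.004. The libraries share their sequencing depth and seedling material across genes, and LTP4 rests on few counts. Col-0 glucose replicate 1 was the highest library of its group for all 4 genes, and Col-0 mock replicate 2 was the highest of its group for all 4 as well.

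**Figure D3:**
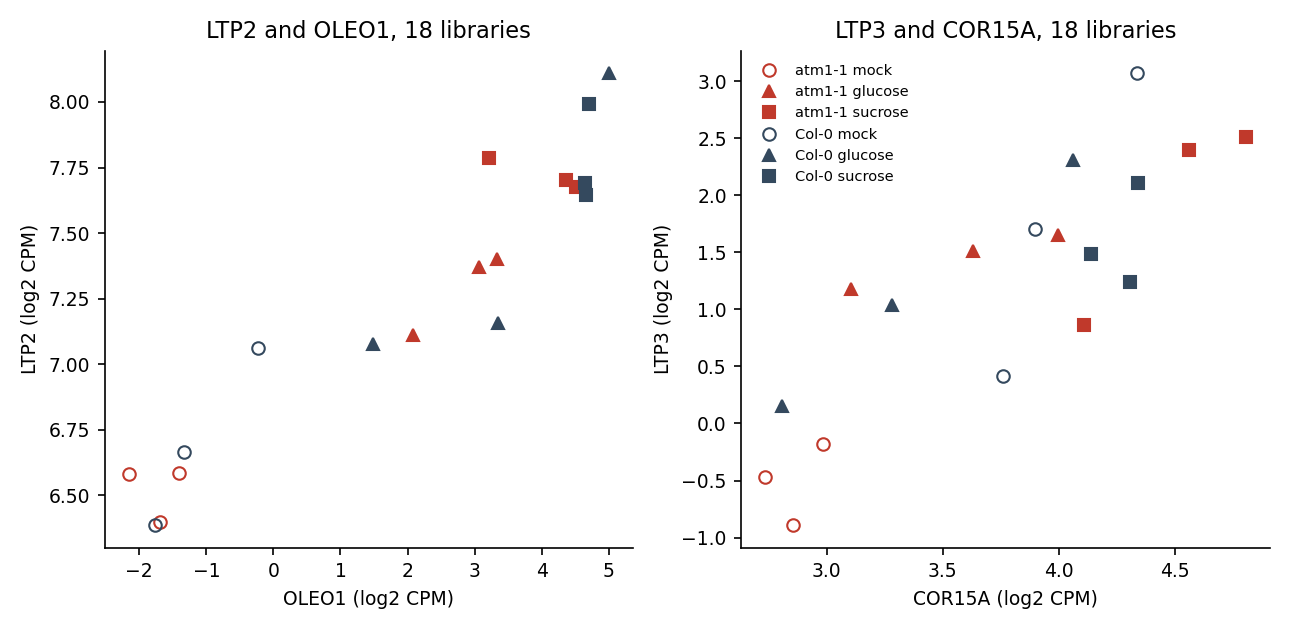
Log2 CPM of LTP2 against OLEO1 (left) and of LTP3 against COR15A (right), 1 point per library for the 18 libraries, with atm1-1 in red, Col-0 in dark blue, open circles for mock, triangles for glucose and squares for sucrose. Mock libraries form the low end for LTP2 and OLEO1, whereas for LTP3 and COR15A the 3 atm1-1 mock libraries lie at the low end, with Col-0 glucose replicate 2 next to them, and the Col-0 mock libraries are spread out.

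Outside the family, the genes most like each member over the 18 libraries were found by Pearson r of log2 CPM among the genes tested. For LTP3 the closest was COR15A (AT2G42540), a cold- and abscisic acid-induced gene whose product protects chloroplast membranes, with r = 0.84, and 0.82 after the group means were taken out. COR15A had 6.51, 7.09 and 7.77 CPM in atm1-1 mock libraries, against 13.4, 20.1 and 14.8 CPM in Col-0 mock libraries, so that here too the atm1-1 libraries lay below and Col-0 replicate 2 was highest. The next were AT4G22320 (r = 0.82) and AT1G80130 (r = 0.81). LTP3 entered this ranking with the values that chose it, so the likeness is a description.

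For LTP2 the closest was OLEO1 (AT4G25140), which encodes an oleosin of seed oil bodies, with r = 0.95, and 0.77 within groups. OLEO1 had 1 to 4 counts in each atm1-1 mock library and 2 to 9 in each Col-0 mock library, and its log2 fold change against mock was 5.42 with glucose and 6.64 with sucrose in atm1-1 and 5.30 with glucose and 6.07 with sucrose in Col-0. As OLEO1 was picked for its likeness to LTP2 over these libraries, those values are a description, without a test. Its glucose libraries in Col-0 ranged from 2.67 to 31.9 CPM, with replicate 1 highest, as for LTP2. The next were AT3G02480 and AT5G20700, both with r = 0.94.

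LTP1 was most like BIR1 (AT5G48380), a receptor-like kinase that restrains immune signalling, with r = 0.96 and the same value of 0.96 within groups. PYRB (AT3G20330), aspartate transcarbamoylase of pyrimidine synthesis, had r = 0.95 and AT1G12310 had 0.94. LTP4 was most like AT2G09705 (r = 0.81), MYB84 (AT3G49690), which encodes an R2R3 MYB transcription factor (0.75), and AT5G42460 (0.75), and with 16 of its 18 libraries below 10 counts this order has little weight.

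Among 8 other genes of the LTP family, LTP5 to LTP12, 5 passed the filter. LTP9, LTP11 and LTP12 were at or near 0 counts in all groups. None of the 5 was called for genotype in any treatment, beside 0.158% of all genes in mock, 0.0508% with glucose and 0.0457% with sucrose. In atm1-1, 4 of the 5 had lower values than in Col-0 in mock, 2 with glucose and 3 with sucrose. LTP8 (AT2G18370) was the only one called against mock, at 0.69 with glucose in atm1-1 (SE 0.18; edgeR adjusted p = 0.0391). It had 85.3 CPM on average against 52.9 CPM in mock, and 2.92% of all genes were called in that comparison. LTP7 (AT2G15050) had negative values in all 4 comparisons with mock, from -0.23 to -0.44, and LTP6 (AT3G08770) had 0.45 in atm1-1 and 0.86 in Col-0 with sucrose, but neither passed. LTP5 (AT3G51600) stayed between -0.32 and 0.03. LTP10 (AT5G01870) averaged 0.868 CPM in mock, 2.28 with glucose and 1.46 with sucrose in atm1-1. In Col-0 its averages were 1.54, 3.13 and 2.59 CPM. The median log2 fold change of the 5 genes with sucrose was 0.45 in atm1-1, against a median of -0.004 over all genes, and 0.11 in Col-0, against 0.01.

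Genes that respond to abscisic acid were counted because LTP3 is known as one. Of 18 such genes, all tested, 1 was called for genotype in mock and none with either sugar. Beside these counts, 0.158% of all genes were called in mock, 0.0508% with glucose and 0.0457% with sucrose. COR15A, picked above for its likeness to LTP3, is among the 18. The gene called in mock was RAB18 (AT5G66400), which encodes a dehydrin. It averaged 186 ± 28.8 CPM in atm1-1 mock and 382 ± 46.4 CPM in Col-0 mock (SD, n = 3 each). In mock, 15 of the 18 genes had lower values in atm1-1. Their median log2 fold change was -0.33, against 0.001 over all genes. Since LTP3 was chosen on that contrast, nothing further is read from it. With glucose the median was -0.04 and with sucrose -0.10.

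Against mock, sucrose in atm1-1 gave 6 of these 18 genes higher and 1 lower, beside 5.23% of all genes called in either direction. The drought- and cold-responsive RD29A rose by 1.75 (SE 0.19; edgeR adjusted p = 4.86e-06) and COR15A, given without its p since it was also picked for its likeness to LTP3, by 1.68 (SE 0.27), and RD29B, KIN1, KIN2 and the homeodomain factor HB7 were the others. KIN1 and KIN2 are close neighbouring copies, so how their reads were divided is uncertain. RAB18 went the other way, at -0.75 with sucrose and -0.78 with glucose in atm1-1 and at -1.74 and -1.12 in Col-0 (edgeR adjusted p of 0.00649, 0.00613, 6.32e-07 and 0.000257). In Col-0 sucrose gave 1 gene higher, RD29A at 0.97, and 1 lower, beside 2.14% of all genes, and glucose gave none higher and 2 lower, RAB18 and the proline synthesis gene P5CS1, beside 0.554%. Glucose in atm1-1 gave 1 higher, RD29A at 0.86, and 1 lower, beside 2.92%. The genes named from this list were picked after their values had been seen. The list was taken because of LTP3, and these comparisons use the mock libraries by which LTP3 was chosen.

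**Figure D4:**
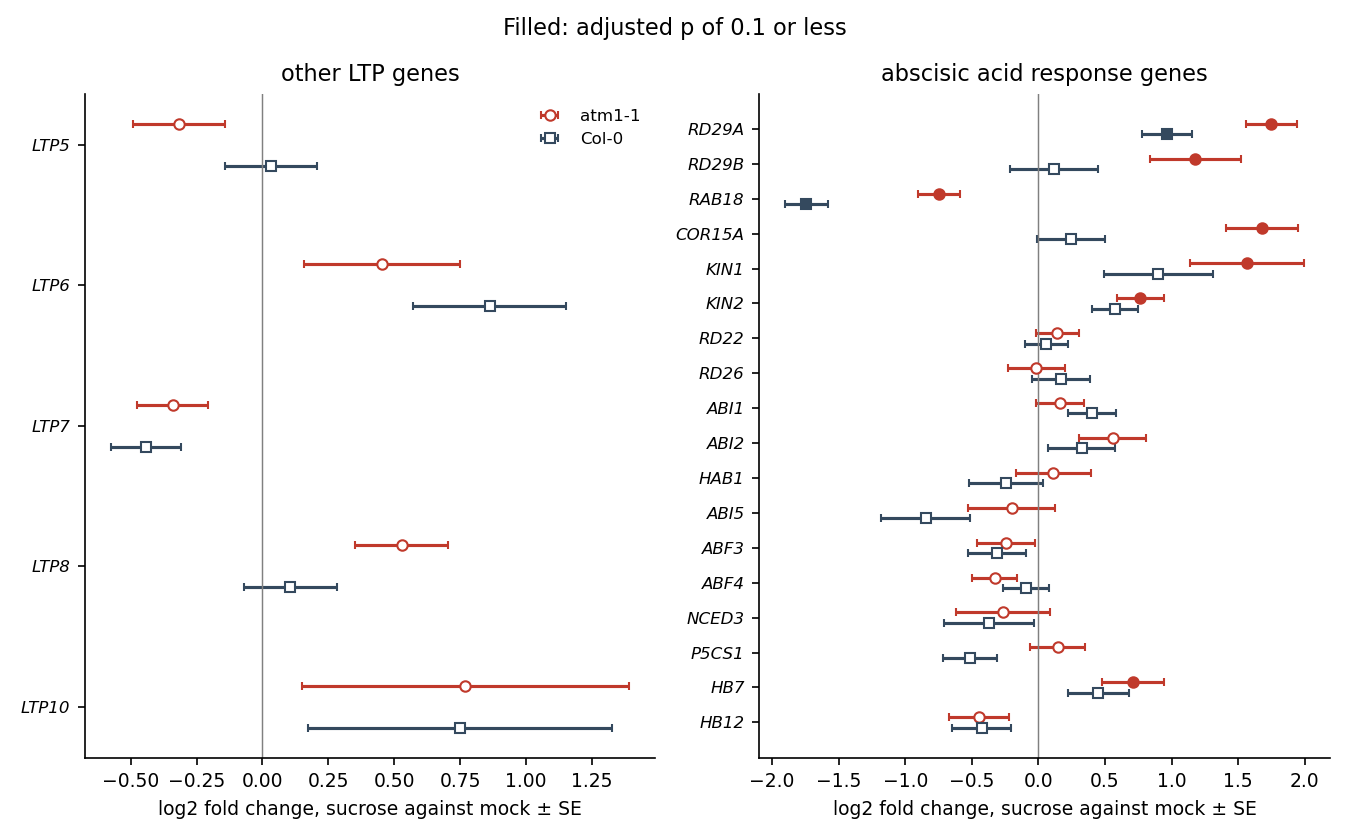
Log2 fold change of sucrose against mock (horizontal axes, bars of 1 SE) for the 5 other LTP genes that passed the filter (left) and 18 abscisic acid response genes (right), in atm1-1 (red circles) and Col-0 (dark squares), filled where edgeR's adjusted p was 0.1 or less. No other LTP gene is filled, and RD29A and RAB18 are filled in both genotypes in opposite directions.

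Of 22 genes of wax and cutin formation, 20 were tested and none was called for genotype in any treatment. Among all genes, 0.158% were called for genotype in mock, 0.0508% with glucose and 0.0457% with sucrose. Of the 20 genes, 16 had lower values in atm1-1 in mock, 13 with glucose and 17 with sucrose. Their median log2 fold changes were -0.16, -0.14 and -0.11, against 0.001, -0.005 and -0.01 over all genes. With sucrose, 2 were called higher than mock in atm1-1 and none in Col-0, and with glucose 2 in atm1-1 and 1 in Col-0. Beside these counts, 5.23% and 2.14% of all genes were called with sucrose in atm1-1 and Col-0, and 2.92% and 0.554% with glucose. They were the wax alkane gene CER1, at 1.98 with glucose and 2.02 with sucrose in atm1-1, and the cutin acyltransferase gene DCR, at 0.60 and 0.62 in atm1-1 and 0.76 with glucose in Col-0. The medians of the 20 genes against mock ran from -0.11 to 0.03.

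Markers of tissue makeup moved with sugar to some extent. The summed level of the 6 leaf markers averaged 34744 CPM with sucrose and 40446 CPM with glucose in atm1-1, against 45065 CPM in atm1-1 mock, and 36094 and 39621 CPM in Col-0, against 44556 CPM in Col-0 mock. RBCS1A, the small subunit of Rubisco, and LHCA1, of the photosystem antenna, were called lower with sucrose in atm1-1, and LHCA1 in Col-0. The 7 root markers summed to 288 to 410 CPM with sucrose, against 264 to 325 CPM in mock, in atm1-1, and to 338 to 411 CPM with sucrose, against 251 to 338 CPM in mock, in Col-0. With glucose they summed to 372 to 476 CPM in atm1-1, all above atm1-1 mock, and to 197 to 375 CPM in Col-0. Of the root markers, ESB1, a Casparian strip gene, was called higher with glucose (0.87) and PRP3, a root hair cell wall gene, with sucrose (1.31), both in atm1-1. Among all genes, 5.23% were called with sucrose and 2.92% with glucose in atm1-1, and 2.14% and 0.554% in Col-0. The 4 shoot epidermis markers, of the layer in which LTP genes are best known, summed to 585 to 709 CPM in atm1-1 mock and 543 to 698 CPM in Col-0 mock. With glucose they summed to 540 to 723 CPM in atm1-1 and 546 to 687 CPM in Col-0. With sucrose the sums were 527 to 641 CPM in atm1-1 and 467 to 585 CPM in Col-0. None of the 4 was called in any comparison. The part of tissue makeup in the sugar values of the LTP genes was not tested.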

How the data were processed

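The values used are the unnormalized read counts of each gene that the authors deposited, from 50-base QuantSeq reads placed on TAIR10. The submitters' processing notes name STAR, HTSeq and edgeR, with no versions, and the use of strand in counting is not given in the sources used here. The paper and the labels name different sequencers. A second deposited table of scaled values was not used, nor was PoissonSeq, the tool of the study's methods. Counts were filtered (filterByExpr), TMM-normalized and fitted over the 6 groups by edgeR 4.0.16 (glmQLFit, R 4.3.3), with Benjamini-Hochberg adjusted p, called q in some tools, at a threshold of 0.1 within each of 11 comparisons. Log2 CPM used a prior count of 2. Intervals are 95% and the SE is the fold change divided by the square root of F. p-values measure the spread between these replicates. Without molecular identifiers, count intervals and the floor of 3 counts cover counting error only. All 18 libraries differed from each other, and of 32832 locus identifiers 32547 matched the RefSeq table.

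The members, lists and tests were chosen with earlier results of these data known. Named genes were the 4 members, the 3 most alike genes of each, ATM1, and listed genes past the threshold. Alternatives were RLE and library-size scaling, no filter, a minimum of 10 counts in every library, DESeq2 1.42.0, the compared groups alone, a replicate block, and leaving out each library. The scripts were tested on simulated data. Sequences were read with Biopython from RefSeq's TAIR10.1, a later release than the build used for mapping, so coordinates are not given.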

Additional observations from a re-analysis of the deposited data

Results flagged for a closer look

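LTP3 was lower in all 3 atm1-1 mock libraries than the mean of Col-0 mock and higher in all 3 atm1-1 glucose libraries than the mean of Col-0 glucose, on the log2 CPM scale. The mean differences were -2.24 in mock and 0.28 with glucose, which are -2.52 apart. On the CPM scale atm1-1 glucose replicate 2, at 2.11, lay below the Col-0 glucose mean of 2.56. The fitted log2 fold change with glucose was 0.02 (SE 0.57). The difference between the treatments was not tested, since the mock values chose the gene.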

How the results depend on the processing

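The fits of LTP1, LTP2 and LTP3 gave 219 values under the 7 settings that keep all libraries in the groups compared, of which 213 kept their side of the threshold or, where untested, stayed within the replicate SD, and 3 uncalled values changed sign. The other 6 passed the threshold where the values reported above did not. LTP2 with glucose in Col-0 passed with library size scaling (0.84), without a filter (0.80), with DESeq2 (0.80) and with only the groups compared (0.80). LTP1 in atm1-1 passed with glucose without a filter (0.57) and with sucrose in the fit of the groups compared (0.45). The cause was not tested. With at least 10 counts in every library LTP3 was not in the fit.

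Leaving out 1 library gave 234 values, of which 22 changed sign, none of them a called value. The log2 fold change ran from 0.26 to 0.81 for LTP1 with glucose in atm1-1, and for LTP2 from 0.72 to 0.87 with glucose in atm1-1, from 0.39 to 1.00 with glucose in Col-0 and from 0.91 to 1.26 with sucrose in Col-0. For LTP3 it ran from -3.30 to -1.90 between the genotypes in mock, from -1.49 to 0.27 with glucose in Col-0 and from -0.92 to 0.49 with sucrose in Col-0. An arm left with 2 libraries shares the spread of the other groups.

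Replicate numbers did not pair the libraries. Over 45 pairs of libraries with the same number the correlation of deviations from the group means ran from -0.15 to 0.27 (median -0.01, against 0.01 for other pairs). Each library's correlations with the other groups were also averaged by replicate number. Of the 3 numbers, the library's own had the highest mean for 4 of 18 libraries. With a replicate block the log2 fold change of LTP2 with sucrose was 1.20 in atm1-1 and 1.06 in Col-0, that of LTP3 in mock was -2.98, and no call of a member changed.

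Counts of genes called over the settings ran from 19 to 107 (31 in the fit reported) for genotype in mock, 4 to 100 (10) with glucose, 1 to 97 (9) with sucrose and 30 to 282 (56) averaged over both sugars. Against mock they ran from 171 to 1073 (575) with glucose and 885 to 1806 (1030) with sucrose in atm1-1, and from 86 to 245 (109) with glucose and 375 to 921 (421) with sucrose in Col-0. Between the sugars they ran from 0 to 48 in atm1-1, 0 to 125 in Col-0 and 0 to 20 for the difference (0 each). Leaving out 1 library gave 12 to 20 genes for genotype in mock, 5 to 207 with glucose, 4 to 7 with sucrose and 30 to 359 averaged over both sugars, and against mock 303 to 2079 with glucose and 369 to 764 with sucrose in atm1-1 and 51 to 95 with glucose and 104 to 715 with sucrose in Col-0. The counts of 207, 359 and 2079 came without atm1-1 glucose replicate 1, and 715 without Col-0 sucrose replicate 1. With library size scaling the median over all genes with sucrose against mock was 0.14 in atm1-1 and 0.15 in Col-0, and relative to it LTP2, at 1.34 and 1.20, stayed higher with sucrose. With 5 to 105 counts of LTP3 and 0 to 14 of LTP4 per library, depth limits what can be said of both genes.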
